A study of Mus musculus with 15 samples.

Results

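The contrast described here sets the effect of the MYC transgene in liver tumors against its effect in liver without tumors. It is a difference of 2 differences between group means in the authors' normalized table of microarray values: tumor minus regression, called the tumor difference, less pre-tumor minus control, called the liver difference. The result is called the interaction. It used all 15 of the 15 arrays and 19232 genes. A positive interaction means that the difference with MYC on was higher in tumor than in liver, and a negative one that it was lower. All values are log2, so that 1 unit is a doubling.

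All mice were FVB/N and carried LAP-tTA, a doxycycline-repressed activator driven in liver cells by the LAP promoter. The 3 control livers came from mice with LAP-tTA alone, and their time without doxycycline is not given in the sources used here. The other groups, of 4 arrays each, also carried TRE-MYC, which the activator switches on once doxycycline is withdrawn. Doxycycline was given in chow at 200 mg/kg up to an age above 8 weeks. Time without the drug was 4 to 5 weeks for pre-tumor liver, which bore no tumor, and 8 to 9 weeks for tumor nodules. The regression group is tumor tissue after that same time without the drug followed by 72 h with it again. The state called MYC off thus differs between the tissues: in liver it is the absence of the transgene, and in tumor it is 72 h of repression. The labels do not say that each array is a separate animal, so the p-values measure the spread between these samples, which may be technical. The design text counts 11 samples, whereas 15 are listed.

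MYC is a transcription factor that pairs with MAX and binds short DNA sites called E-boxes, of which CACGTG is the standard form. It is known for raising the genes of ribosome production, nucleotide synthesis and the cell cycle, and several of its targets, such as Odc1 and Cdk4, are used as readouts of its activity. In liver, sustained MYC is known to drive tumors of hepatocyte and hepatoblast character, which shrink and differentiate when it is switched off.

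Between 46.4% and 90.8% of the gene spots of an array were well above background, the lowest on tumor 3 and the highest on pre-tumor 4. The tumor arrays lay at 46.4% to 79.0% and the regression arrays at 61.7% to 68.9%. Column medians of the normalized table were 5.65 to 5.68. The deposited values carry no subtraction of background, which compresses the differences of dim genes. The arrays sat on 4 slides, of which 3 held every group. These are pieces of whole tissue, in which fewer cells of a type and less RNA per cell cannot be told apart. The hepatocyte markers were present in every group: the 24 hepatocyte secreted proteins measured had a mean level of 12.55 to 12.73 on control arrays and 9.95 to 10.78 on tumor arrays, and each was well above background on at least 1 tumor array.

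Myc itself was read by 3 probes. On probe A_52_P108346 the control arrays read 6.48, 5.99 and 5.71, the pre-tumor arrays 8.72, 6.66, 7.80 and 7.01, the tumor arrays 10.03, 9.86, 10.61 and 10.89, and the regression arrays 6.38, 6.40, 6.52 and 6.06. All tumor arrays were above all pre-tumor arrays, and these above all control and regression arrays. The tumor difference was 4.01 (adjusted p = 2.1e-06 over the 29924 probes) and the liver difference 1.49 (adjusted p = 0.43), an interaction of 2.52 ± 0.53 (SE, adjusted p = 0.0060). The probe with the highest level, A_52_P278549, which stands for the gene in the fit over genes, moved the other way by sign in both tissues, with a tumor difference of -0.61 and a liver difference of -0.29 (interaction -0.32, adjusted p = 0.88). The third, A_51_P102096, had a tumor difference of -0.52 that passed (adjusted p = 0.041), opposite in sign to the first probe, and an interaction of -0.54 that did not (adjusted p = 0.21). The labels state neither the species of the transgene nor which probe reads it. On the first probe the tissues were thus not compared at equal Myc levels.

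The interaction passed an adjusted p of 0.05 (limma, Benjamini-Hochberg over the 19232 genes) for 1119 genes that were higher, 5.82% of those tested, and 1249 that were lower, 6.49%. The tumor difference alone passed for 1977 genes higher (10.3%) and 1854 lower (9.64%). The liver difference passed for 3 genes (0.0156%), Sergef, Etfbkmt and Echdc3. Of the 1119 genes with a higher interaction, 1078 had a tumor difference that was itself higher, and their median was 1.29 in tumor and -0.08 in liver. Of the 1249 with a lower one, 1142 had a lower tumor difference, with medians of -1.38 in tumor and 0.28 in liver. With the background-subtracted scanner signals, 564 genes were higher and 763 lower, all 1246 calls shared with the normalized table having the same direction. In those signals the median interaction of all genes was 0.20, against 0.04 in the normalized table. Of the 116 named genes that were called, 14 had an interaction over 1.5 times as large in them. Values were -3.12 for Afp, -6.40 for Akr1c14, -2.51 for Alas2, 5.44 for Cdk1, -3.14 for Ces2g, -6.03 for Cyp2a12 and -2.59 for Gas2. They were -5.10 for Gpc3, -2.31 for Nkg7, -4.16 for Pdgfrb, -4.21 for Psd3, 3.29 for Sergef, -3.85 for Slco1b2 and -3.73 for Tek.

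**Figure D1:**
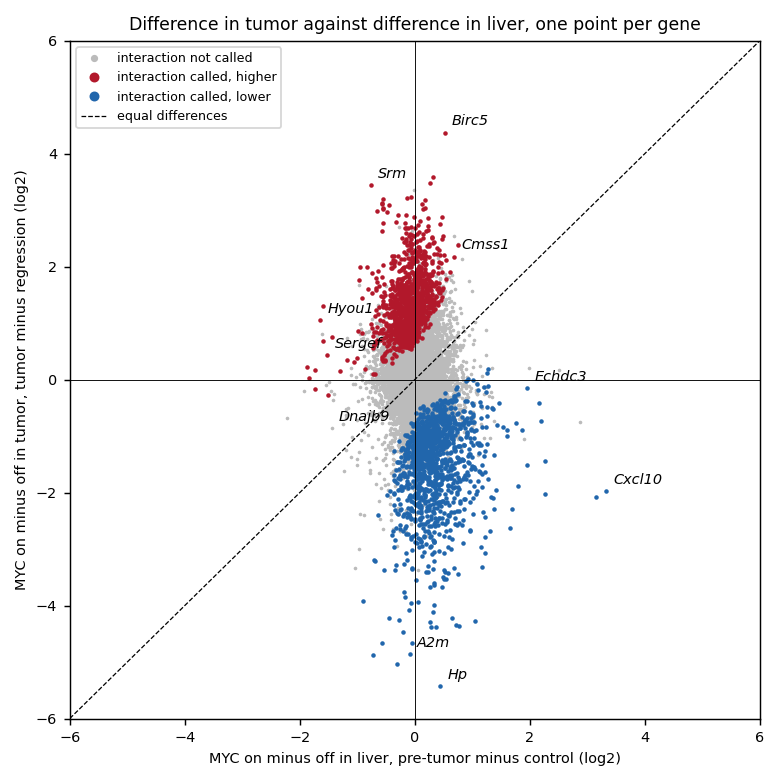
Each point is one of 19232 genes, with the liver difference (pre-tumor minus control, log2) on the x axis, the tumor difference (tumor minus regression, log2) on the y axis and the diagonal where both are equal. The 1119 genes with a higher interaction (red) lie mostly high on the y axis and near 0 on the x axis, and the 1249 with a lower one (blue) include genes far to the right, such as Cxcl10.

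In most called genes the tumor difference was the larger of the 2. It was larger in size than the liver difference in 1086 of the 1119 genes and in 1151 of the 1249. The same count was not made over all genes, so nothing is read from its size. The liver difference had the opposite sign to the tumor difference in 713 of the 1119 genes and in 1044 of the 1249, 64 and 286 of them with an unadjusted p under 0.05 in liver. The choice of genes by a large interaction itself favours opposite signs, so nothing is read from these counts. Among the 1854 genes that were lower in tumor, 67.3% had a positive liver difference, against 48.5% of all genes. Among the 1977 that were higher in tumor the share was 53.3%, so that side did not lean to the opposite sign. Across genes, which are not independent replicates, the 2 differences had a Pearson correlation of -0.155 and a Spearman correlation of -0.121, and 8841 genes (46%) had the same sign in both. Within each of the 3 slides with all groups, 1070 of the 1119 and 1202 of the 1249 genes kept their direction. The arrays of these slides also made the calls, which itself favours the same direction, so this is no independent check. With slide as a block the calls were 811 higher and 955 lower.

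The levels behind these calls took different forms. For 1054 of the 1119 genes with a higher interaction, the regression mean was within 1 log2 unit of the control mean, while the tumor mean was higher than control by 1 or more in 707. The genes with a lower interaction were of at least 2 kinds. In 448 of them the tumor mean was below the control mean by 1 or more, and in 479 the regression mean was above the control mean by 1 or more. In 734 of the 1249 the tumor mean was within 1 unit of control. Genes of the first kind had a level that was low in tumor, and genes of the second kind one that was high in regression.

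The genes with the highest interaction were led by growth genes. Srm, the spermidine synthase of polyamine synthesis and a MYC target, read 10.49, 10.30, 11.20 and 10.95 on the tumor arrays and 7.5, 7.51, 7.07 and 7.07 on the regression arrays. Its levels were 7.5, 7.19, 7.57 and 7.82 on the pre-tumor arrays and 8.81, 8.13 and 7.91 on the control arrays. Tumor and regression did not overlap, and pre-tumor lay below control on every array. The tumor difference was 3.45, the liver difference -0.76, and the interaction 4.21 ± 0.35 (SE, adjusted p = 8.1e-06), with 2.89, 5.75 and 4.44 within the slides. Birc5, survivin, an inhibitor of cell death that acts in mitosis, had 12.79 ± 0.67 (SD) in tumor, 8.42 ± 0.17 in regression, 7.74 ± 0.34 in pre-tumor and 7.22 ± 0.47 in control, an interaction of 3.85 (adjusted p = 5.5e-05).

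The rest of the 12 highest were of a few kinds. Histones made up 6 of the 12: H2bc14 (interaction 3.75), H2bc12 (3.69), H4c4 (3.67), H4c14 (3.64), H4c6 (3.58) and H4f16 (3.33). These genes have near-identical copies, so their probes may read several of them and they are not independent. Hmga1, a chromatin architectural protein, stood at 3.58, Eno1, the glycolytic enolase, at 3.44 and Nhp2, a protein of the small nucleolar RNPs that guide RNA pseudouridylation, at 3.35. Sfmbt2, a Polycomb-group gene, read 9.15 ± 0.21 in tumor against 5.92 ± 0.11, 5.72 ± 0.29 and 5.78 ± 0.20 in regression, pre-tumor and control. Its interaction was 3.29 ± 0.24 (adjusted p = 3.6e-06), and its 3 probes were all called in that direction.

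MYC's classic targets followed. Of 30 core targets, the interaction was higher in 19, lower in 1 and not called in 10, with a median of 1.63 against 0.04 over all genes. Their median was 1.63 in the tumor difference and 0.09 in the liver difference. Odc1, the first enzyme of polyamine synthesis, had an interaction of 2.12 ± 0.35 (adjusted p = 0.00099). Npm1, a nucleolar chaperone, had one of 2.44 ± 0.43 (adjusted p = 0.0017), Ncl, nucleolin, one of 2.06 ± 0.56 (adjusted p = 0.023), and Cad, which starts pyrimidine synthesis, one of 1.41 ± 0.49, which did not pass (adjusted p = 0.081). Cdk4, the kinase that opens the cell cycle, read 10.95, 10.82, 10.63 and 11.20 in tumor, 9.59, 9.60, 9.10 and 8.66 in regression, 7.68, 8.22, 8.26 and 8.01 in pre-tumor and 8.71, 8.00 and 7.88 in control. Its pre-tumor and control levels overlapped, and its interaction was 1.82 ± 0.35 (adjusted p = 0.0031). The member with a lower interaction was Ccnd2, a D-type cyclin, at -1.06 ± 0.29 (adjusted p = 0.023), beside Ccnd3 at 1.05 ± 0.29 (adjusted p = 0.024).

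Genes of protein synthesis had high tumor differences and liver differences near 0. The tumor difference was higher in 33 of 40 genes of ribosome biogenesis and in 31 of 32 ribosomal proteins. The interaction was higher in 25 of 40 genes of ribosome biogenesis (median 1.48), in 27 of 32 ribosomal proteins (median 1.54) and in 14 of 29 translation factors and tRNA synthetases (median 1.20), and lower in none of these 3 lists. Examples are Nolc1, a nucleolar phosphoprotein (2.38), Fbl, the rRNA methylase fibrillarin (1.67), Rplp0 of the ribosomal stalk (2.38), Rps18 (1.89), Eif3b of the initiation factor eIF3 (1.82) and Eif5a, the factor modified by spermidine (1.93). The ribosomal proteins had a mean level of 12.56 to 12.76 on tumor arrays, 10.97 to 11.49 on regression, 10.73 to 10.85 on pre-tumor and 10.69 to 11.11 on control arrays, so that only the tumor arrays stood clear of the others. Of 11 polyamine genes, 5 were higher, among them Amd2 (1.60), which makes decarboxylated S-adenosylmethionine, and 2 were lower, Sat1 and Paox of polyamine breakdown, named after their values were seen.

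Cell division and DNA replication genes also had high tumor differences, but their levels outside tumor were low. The interaction was higher in 26 of 32 mitotic genes (median 1.55) and 18 of 30 replication genes (median 1.37). The mitotic genes averaged 5.64 to 5.83 on control and 5.67 to 5.92 on pre-tumor arrays, near the column medians. The replication genes averaged 6.03 to 6.17 and 6.09 to 6.39. Of the 32 mitotic genes, 3 were never well above background in control, 2 in pre-tumor and 5 in regression. Differences of such dim genes are compressed, so nothing is read from their small liver differences. Mcm6, a subunit of the replicative helicase, read 10.09, 9.94, 10.10 and 9.93 in tumor, 6.39, 6.24, 6.75 and 6.33 in regression, 5.93, 6.51, 6.17 and 5.55 in pre-tumor and 5.10, 6.05 and 6.04 in control. The 4 tumor arrays lay more than 3 units above every other array, and the interaction was 3.28 ± 0.34 (adjusted p = 3.7e-05). Top2a, the topoisomerase of dividing cells, had an interaction of 2.87, Cdt1, which licenses origins, 2.77, Mcm2 1.91 and the proliferation marker Mki67 1.55. Cdk1, the mitotic kinase, was well above background on the 4 tumor arrays and on no other array. Against the lowest signal well above background it was at least 4.74-fold higher in tumor than in regression, a bound set by the dimmest spots measured there.

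Metabolism split by pathway. Of 29 nucleotide and one-carbon genes, 19 were higher in the interaction and none lower (median 1.45), among them Adsl of purine synthesis (2.09) and Mthfd1l of mitochondrial folate metabolism (1.98), the latter well above background on no control array. Of 18 genes from glucose uptake to lactate export, 8 were higher and none lower (median 1.20): Slc16a3, a lactate exporter, had an interaction of 2.52, Gapdh 1.69, Ldha, lactate dehydrogenase A, 1.47 and Pkm, pyruvate kinase of non-hepatic type, 1.59 (adjusted p = 0.041). In the scanner signals Gapdh had 1.89, Ldha 1.52 and Pkm 1.64, and none of the 3 passed (adjusted p = 0.079, 0.098 and 0.12). Pkm also lost its call in 12 of the fits that left out 1 array. Hk2, the hexokinase of many tumors, had 0.73 and did not pass (adjusted p = 0.22). Of 13 genes of hepatic glucose and glycogen metabolism 3 were lower and none higher: Fbp1 of gluconeogenesis had -4.26 Slc2a2, the liver glucose transporter, -2.59 and Pygl, the liver glycogen phosphorylase, -2.71. Glutamine and glutathione genes were mixed, with 4 of 17 higher, among them Ggt1 (1.76), and 2 lower, among them Glud1 (-1.71). Gls2, a glutaminase of liver, did not pass at -0.38 (adjusted p = 0.81).

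**Figure D2:**
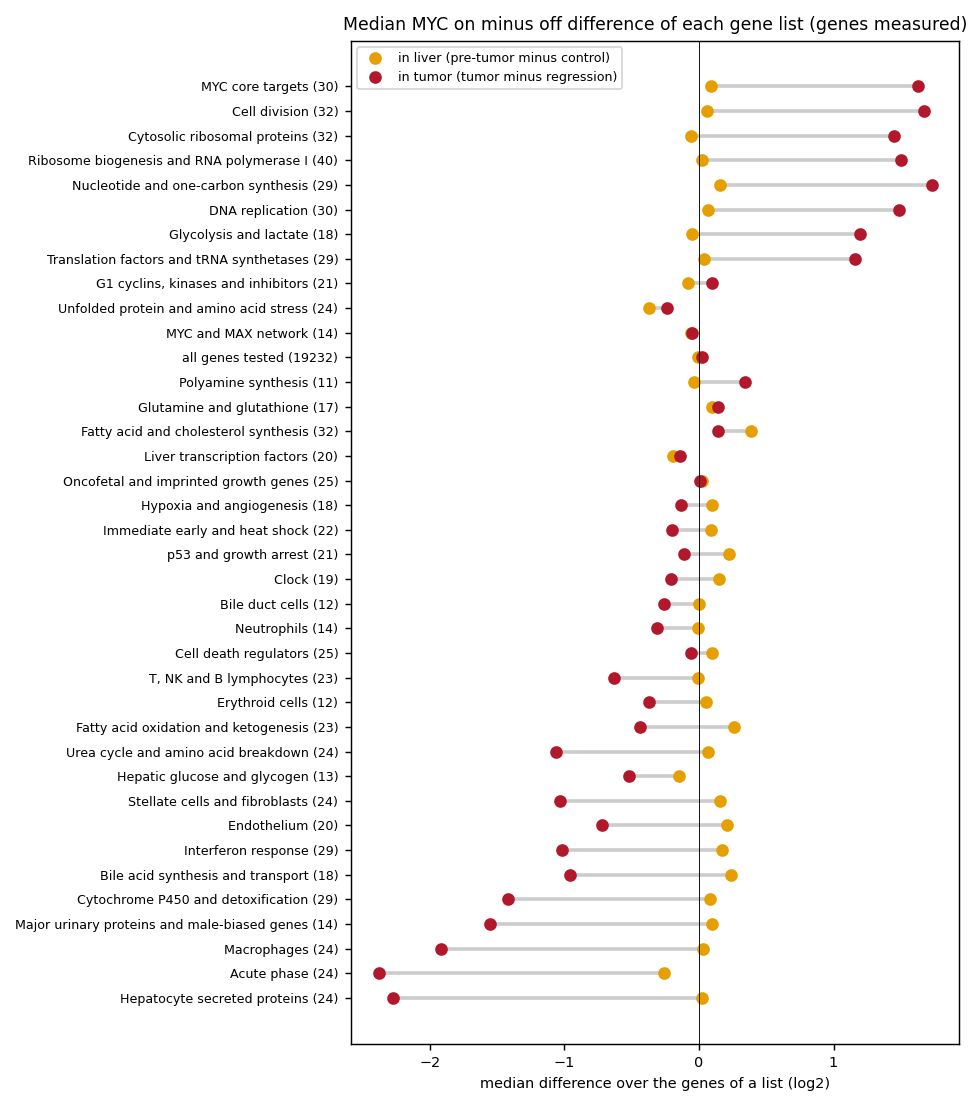
For each gene list (number of genes measured in brackets) the 2 points give the median liver difference (orange) and the median tumor difference (red) on the x axis in log2. The medians in liver lie between -0.37 and 0.39, while those in tumor run from -2.38 for the acute phase to 1.73 for nucleotide and one-carbon synthesis.

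Promoters of 4 genes are printed here, all taken from windows that hold CACGTG. Cdk4 and Ldha carry several copies of this MYC site in their core promoter. Hmgn2 and Dnajb9 are among the genes that moved the same way in tumor and liver, most windows of which held no match. The windows run from 250 bases before to 50 after the start site, from RefSeq on GRCm38.p6, in the direction of the gene, with CACGTG in capitals.
Cdk4, chr10:127063285-127063584, plus strand: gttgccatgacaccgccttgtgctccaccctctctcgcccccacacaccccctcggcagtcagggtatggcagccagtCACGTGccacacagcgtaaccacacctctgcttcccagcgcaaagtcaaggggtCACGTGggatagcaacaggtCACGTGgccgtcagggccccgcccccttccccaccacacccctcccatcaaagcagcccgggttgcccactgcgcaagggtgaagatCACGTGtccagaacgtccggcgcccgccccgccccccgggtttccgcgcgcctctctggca
Ldha, chr7:46845554-46845853, plus strand: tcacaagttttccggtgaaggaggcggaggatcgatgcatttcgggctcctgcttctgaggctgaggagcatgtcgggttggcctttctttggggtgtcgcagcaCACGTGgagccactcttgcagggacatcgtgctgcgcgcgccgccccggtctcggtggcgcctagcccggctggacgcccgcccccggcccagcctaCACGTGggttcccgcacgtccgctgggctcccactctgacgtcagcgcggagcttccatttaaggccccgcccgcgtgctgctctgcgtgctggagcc
Hmgn2, chr4:133967942-133968241, minus strand: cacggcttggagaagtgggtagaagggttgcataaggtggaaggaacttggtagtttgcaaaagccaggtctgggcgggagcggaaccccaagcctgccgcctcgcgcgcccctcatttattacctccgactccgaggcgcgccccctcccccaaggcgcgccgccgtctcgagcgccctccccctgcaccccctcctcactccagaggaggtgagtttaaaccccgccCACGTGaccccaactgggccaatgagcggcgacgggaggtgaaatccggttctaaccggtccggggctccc
Dnajb9, chr12:44210019-44210318, minus strand: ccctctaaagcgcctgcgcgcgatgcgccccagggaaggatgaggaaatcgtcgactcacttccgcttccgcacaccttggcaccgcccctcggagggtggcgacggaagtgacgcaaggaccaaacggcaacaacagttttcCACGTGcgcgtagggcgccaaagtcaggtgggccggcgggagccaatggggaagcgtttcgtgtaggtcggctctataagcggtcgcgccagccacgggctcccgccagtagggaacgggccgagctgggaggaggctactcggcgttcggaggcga
The windows counted did not span every chromosome and covered 14461 of the 19232 genes tested. The motif CACGTG, which reads the same on both strands, was found in 7.2% of the 32851 windows counted and in 8.6% of the 17982 windows of genes tested. It was in 12.4% of the 1001 windows of genes with a higher interaction and in 7.6% of the 1269 windows of genes with a lower one. It was in 9 of the 30 windows of the core targets and in 8 of the 42 of ribosome biogenesis, and in none of the 20 windows of hepatocyte secreted proteins. Of the genes that moved the same way, 3 of 80 windows in the higher set held it and 3 of 31 in the lower set. These are matches of letters in short windows, given without a test. A match is not a measured binding site.

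The genes with the lowest interaction were led by products of the hepatocyte. Hp, haptoglobin, read 8.00, 7.04, 10.41 and 9.00 in tumor, 13.87, 14.12, 13.79 and 14.36 in regression, 14.64, 15.34, 14.48 and 14.27 in pre-tumor and 14.28, 14.68 and 13.75 in control. Only the tumor arrays were low. The tumor difference was -5.42, the liver difference 0.45 and the interaction -5.87 ± 0.76 (SE, adjusted p = 0.00015), with -7.35, -5.01 and -4.59 within the slides. Alb, albumin, read 13.58, 14.69, 14.57 and 14.05 in tumor and 16.94, 16.39, 16.60 and 16.60 in regression, and its interaction was -2.68 ± 0.33 (adjusted p = 0.00012).

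Other genes among the 12 lowest had this form. F11, coagulation factor XI, had an interaction of -5.32 and a liver difference of 1.04. Acsm1, a medium-chain acyl-CoA synthetase, had 6.26 ± 0.14 in tumor against 10.47 ± 0.31 in regression and 11.78 ± 0.52 in control, an interaction of -4.87 ± 0.30 (adjusted p = 8.7e-07). Serpina3k, a serine protease inhibitor (-4.74), and Cp, ceruloplasmin (-4.63), followed. Pla1a, a phospholipase (-5.12), Ccl9, a chemokine (-5.05), and Vnn3, a pantetheinase (-4.76), were lower in tumor and higher in regression than in control: Vnn3 had 5.57 ± 0.55 in tumor, 9.96 ± 0.32 in regression and 6.94 ± 0.29 in control.

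Of 24 hepatocyte secreted proteins, 19 had a lower interaction and none a higher one (median -2.15), among them Trf, transferrin (-2.59), and F9, coagulation factor IX (-3.54). Of 29 cytochrome P450 and detoxification genes 17 were lower (median -1.55): Cyp3a11, a main drug oxidase, had -3.98, and Cyp2a12, well above background on no tumor array, was at least 7.24-fold lower in tumor than in regression. Of 18 bile acid genes 9 were lower (median -1.53), such as Slc27a5, the bile acid CoA ligase (-4.06), and the uptake carrier Slco1b2 (-2.46). Lower in the interaction were also 7 of 24 genes of the urea cycle and amino acid breakdown, with Dpys (-3.27) and Hal, histidase (-2.39), and 7 of 23 of fatty acid oxidation, with Bdh1 of ketone body metabolism (-2.96). Cyp4a12a (-2.97) and Cyp2d9 (-2.55) were among the 4 of 14 male-biased genes that were lower. Mup1, a major urinary protein, did not pass at -3.42 ± 1.36 (adjusted p = 0.13), with regression arrays from 8.86 to 14.68. Of 20 liver transcription factors 2 were called, both higher. Hnf4a, a main regulator of hepatocyte genes, had 1.05 (adjusted p = 0.035), from a liver difference of -0.87 and a tumor difference of 0.18, and this call was lost under 17 of the 28 alternative settings, 10 of which left out 1 array, with values that stayed positive. Genes of the Cyp, Mup and Serpina families have near-identical copies, so a probe may read several of them. In sterol and fatty acid synthesis 30 of 32 genes were not called, and Insig2 (-2.75) and Sc5d (-2.41) were lower. The call of Sc5d was lost under 15 of the 28 settings, and the mean of its probes gave -1.39 (adjusted p = 0.075).

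The acute phase genes, which hepatocytes make in response to cytokines, were lower in 14 of 24 cases and higher in none (median -2.07). Serpina3m had -3.98 and Hpx, hemopexin, -3.97. Saa2, serum amyloid A, was at 15.22 ± 0.10 in control, 15.41 ± 0.44 in pre-tumor, 6.86 ± 1.01 in tumor and 9.62 ± 1.83 in regression, and its interaction of -2.95 ± 1.01 did not pass (adjusted p = 0.075). Levels of this list were also high in control liver, with means of 11.85 to 12.35 over its genes on control arrays, 11.64 to 12.09 on pre-tumor, 7.27 to 8.60 on tumor and 10.04 to 10.82 on regression arrays. The regression arrays thus lay between tumor and liver.

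A second form was a high level in regression alone. A2m, alpha-2-macroglobulin, read 10.99, 10.59, 11.08 and 10.86 in regression, 6.29, 6.40, 5.96 and 5.43 in tumor, 4.90, 5.02, 4.96 and 4.99 in pre-tumor and 5.14, 5.16 and 4.86 in control. Regression stood above every other array, and the spot was well above background on 0 of 3 control and 1 of 4 pre-tumor arrays. Its tumor difference was -4.86, its liver difference -0.09 and its interaction -4.77 ± 0.28 (adjusted p = 7.4e-07). Meg3, an imprinted long non-coding RNA, had an interaction of -3.38 with 9.90 ± 0.48 in regression and 6.82 ± 0.48 or less in the other groups, and Gpc3, an oncofetal glypican, one of -2.73 with 7.86 ± 0.70 against 5.19 ± 0.38 or less. Bcl2l11, the death-promoting BIM, had -1.92 with 7.94 ± 0.16 in regression and 6.18 ± 0.30 or less elsewhere. Bcl2l1, its antagonist BCL-XL, had -3.66, with 11.86 ± 0.24 in regression and 10.51 ± 0.66 in pre-tumor against 9.57 ± 0.71 in tumor and 9.14 ± 0.48 in control.

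Afp, Igf2 and H19 were high in tumor and in regression. Afp, alpha-fetoprotein, had 13.78 ± 0.79 in tumor and 15.52 ± 0.12 in regression against 5.29 ± 0.44 in pre-tumor and 5.06 ± 0.16 in control, and its interaction was -1.96 ± 0.46 (adjusted p = 0.0098). Igf2 (interaction -1.03, adjusted p = 0.26) and H19 (-0.18, adjusted p = 0.95) did not pass. Igf2 had 13.00 ± 0.91 in tumor, 13.77 ± 0.36 in regression, 5.49 ± 0.27 in pre-tumor and 5.23 ± 0.23 in control, and H19 had 16.13 ± 0.36, 15.52 ± 0.23, 6.65 ± 0.96 and 5.87 ± 0.41. Of the 25 genes of this list 3 were called, all lower. The contrast does not measure a level that is the same in tumor and regression.

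Markers of macrophages, stellate cells, endothelium and lymphocytes had a lower interaction more often than all genes, of which 6.49% were lower. Markers of neutrophils, bile duct cells and erythroid cells seldom did. Of 24 macrophage markers 15 were lower and none higher (median -1.75). Its genes had a mean level of 8.97 to 9.36 on regression arrays, against 7.56 to 7.72 on tumor, 7.02 to 7.86 on pre-tumor and 6.89 to 7.68 on control arrays, and all 24 were well above background on at least 1 array of each group. Tyrobp, a signalling adaptor of myeloid cells, read 12.91, 12.25, 12.28 and 12.59 in regression and 10.17, 10.05, 9.58 and 10.02 in tumor, with 8.62 ± 0.64 in pre-tumor and 8.51 ± 0.47 in control. Its interaction was -2.66 ± 0.42 (adjusted p = 0.00080), and that of Cd5l, a macrophage secreted protein, -2.84. Of 24 stellate cell and fibroblast markers 11 were lower and none higher (median -1.12), with mean levels of 7.74 to 8.49 on regression and 6.95 to 7.36 on tumor arrays. Col3a1, a fibrillar collagen, read 13.05, 13.15, 12.30 and 11.79 in regression and 9.91, 10.30, 9.52 and 9.92 in tumor, an interaction of -3.62 ± 0.47 (adjusted p = 0.00015), and Pdgfrb, a mesenchymal receptor, had -2.35. The part of these cells in the other results was not tested.

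Of 20 endothelial markers 8 were lower (median -1.21), with means of 6.52 to 7.03 on regression, 5.95 to 6.10 on tumor, 6.62 to 6.88 on pre-tumor and 6.35 to 6.60 on control arrays. Stab1 (-2.17) and Tek (-1.69) are examples. Of 23 lymphocyte markers 6 were lower (median -0.51), among them Cd3g and Nkg7, both at -1.39, with mean levels of 6.46 to 6.74 on regression and 5.99 to 6.04 on tumor arrays, where 3 of the 23 were never well above background. Of 14 neutrophil markers none was called, and of 12 bile duct markers 1 was, Tff3 (-2.91), with 10.90 ± 0.24 in regression and 7.83 ± 0.84 in tumor. Of 12 erythroid markers 1 was lower, Alas2 (-1.54), and of 5 sex chromosome genes none was called.

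**Figure D3:**
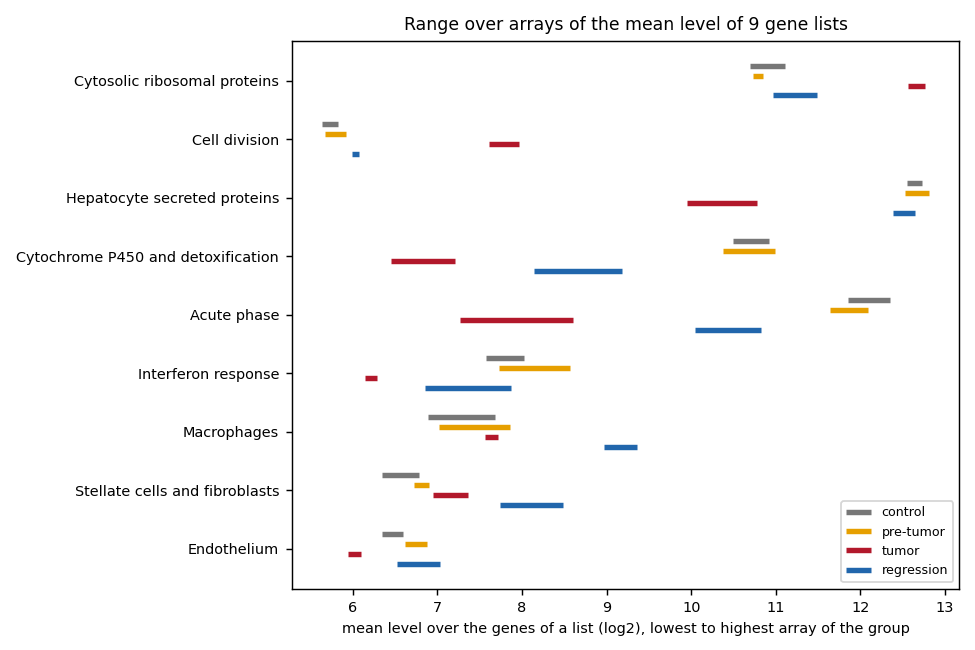
Each bar runs from the lowest to the highest array of a group in the mean level (log2, x axis) of the genes of a list, with control in grey, pre-tumor in orange, tumor in red and regression in blue. Tumor stands apart from the 3 other groups in, for example, ribosomal proteins, cell division and hepatocyte secreted proteins, whereas regression stands apart in, for example, macrophage markers.

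In a smaller set the liver difference made up much of the contrast. The liver difference was the larger of the 2 in 98 of the 1249 lower genes and 33 of the 1119 higher ones. Cxcl10, an interferon-induced chemokine, read 10.38, 8.20, 10.86 and 10.55 in pre-tumor, 5.31, 5.90 and 8.79 in control, 6.22, 6.08, 6.91 and 6.85 in tumor and 8.07, 8.31, 9.26 and 8.33 in regression. Pre-tumor and control overlapped through control 3, while tumor lay wholly below regression. The liver difference was 3.33 ± 0.72 (adjusted p = 0.18) and the interaction -5.31 ± 0.98 (adjusted p = 0.0022). Tnfaip3, the inhibitor of NF-kappaB signalling known as A20, had a liver difference of 3.15 and an interaction of -5.23. Of 29 interferon response genes 10 had a lower interaction and none a higher one (median -1.36), and 5 were higher in liver at an unadjusted p under 0.05, among them Irf1 (1.60) and Cxcl9 (2.27). That unadjusted threshold was passed by 3.01% of all genes in the higher direction and 1.27% in the lower direction.

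Of 22 immediate early and heat shock genes, 5 had a lower interaction, 1 a higher one and 16 were not called. Egr1, an immediate early transcription factor, read 7.70, 7.31, 6.98 and 10.04 in pre-tumor, 5.82, 5.65 and 5.77 in control, 7.21, 6.34, 6.21 and 6.89 in tumor and 7.46, 9.36, 7.88 and 10.08 in regression. Neither pair overlapped, and they differed in opposite directions, and the interaction was -4.29 ± 0.91 (adjusted p = 0.0054). Zfp36, which destabilises such transcripts, had -3.68 and Atf3, a stress factor of the same kind, -2.75. Of the 22 genes, 4 were higher in liver at an unadjusted p under 0.05. Vegfa (-1.82) and Flt1 (-1.56), the vessel growth factor and its receptor, were 2 of the 3 lower genes among 18 of hypoxia and angiogenesis, and Rora (-3.28) and Usp2 (2.36) were called among 19 clock genes, for which the hour of sampling is not given in the sources used here. Mxd1 (-2.75), which competes with MYC for MAX, was the 1 called gene of 14 in the MYC and MAX network. Mxi1, a relative of it, had 0.62 (adjusted p = 0.17), Max 0.11 (adjusted p = 0.95) and Mycn 0.37 (adjusted p = 0.59).

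The unfolded protein genes had the lowest median liver difference of the lists. It was -0.37 in liver and -0.24 in tumor over 24 genes, and 9 of them were lower in liver at an unadjusted p under 0.05 and 1 was higher. Hyou1, a chaperone of the endoplasmic reticulum, read 7.81, 8.57, 8.73 and 9.71 in pre-tumor, 9.76, 10.10 and 11.20 in control, 8.19, 8.25, 9.36 and 8.92 in tumor and 7.63, 7.15, 7.87 and 7.84 in regression. Neither pair overlapped, and the interaction was 2.71 ± 0.58 (adjusted p = 0.0057), with a liver difference of -1.65 and a tumor difference of 1.06 that did not pass alone (adjusted p = 0.36 and 0.075). Manf, a secreted stress protein, had an interaction of 2.20 and Asns, asparagine synthetase, 1.69, the latter with a liver difference of -0.15. Over the 24 genes the interaction was higher in 3, lower in 2, with Atf3 (-2.75) among these, and not called in 19 (median 0.18). The p53 and growth arrest list had 2 of 21 genes lower, Sesn3 (-1.39) and Gas2 (-1.11). Cdkn1a, the p21 inhibitor of cyclin-dependent kinases, was not called (0.57, adjusted p = 0.77).

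The 3 genes that passed in liver all had a called interaction. Sergef, a guanine nucleotide exchange factor of secretion, read 5.68, 5.79, 5.51 and 5.12 in pre-tumor and 7.02, 6.98 and 7.13 in control, with 5.92, 6.06, 5.91 and 6.42 in tumor and 5.59, 5.60, 5.74 and 5.63 in regression. Control stood above every other array, and the liver difference was -1.52 ± 0.17 (adjusted p = 0.0059) and the interaction 1.96 ± 0.24 (adjusted p = 9.6e-05). Etfbkmt, a lysine methyltransferase of mitochondria, read 8.24, 8.16, 8.03 and 8.11 in pre-tumor and 9.81, 9.36 and 9.14 in control, a liver difference of -1.30 (adjusted p = 0.027) and a tumor difference of 0.15. Echdc3, a gene of the enoyl-CoA hydratase family, read 7.53, 8.02, 7.79 and 8.27 in pre-tumor and 5.72, 5.90 and 6.22 in control, a liver difference of 1.96 (adjusted p = 0.024) and a tumor difference of -0.15. With slide as a block, and in the scanner signals, no gene passed in liver, while 29 did without pre-tumor 2 and 18 without control 3. Cyp7a1, the rate-limiting enzyme of bile acid synthesis, had a liver difference of -2.22 that rested on 2 control arrays at 9.62 and 8.09, the 3rd reading 5.63, and an interaction of 1.55 (adjusted p = 0.31).

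**Figure D4:**
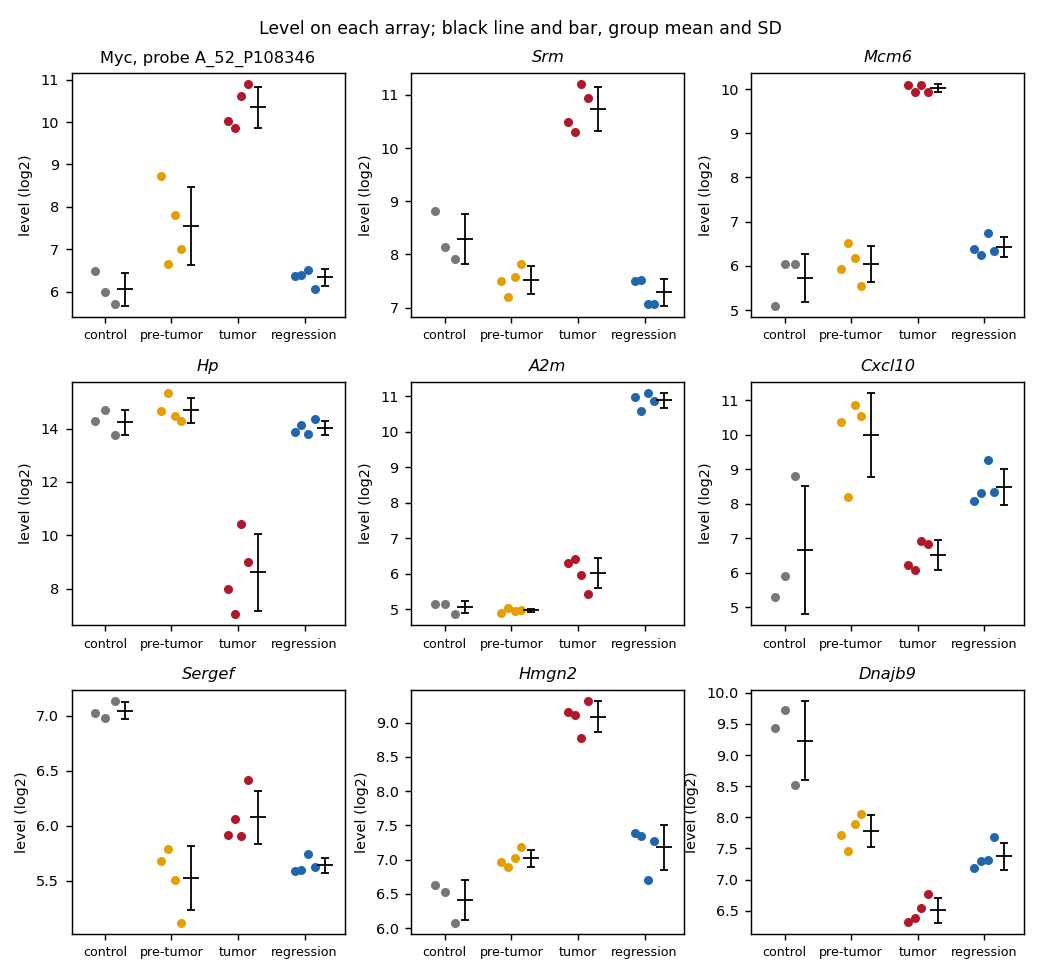
Each panel gives the level (log2, y axis) of 1 gene or probe on every array of the 4 groups, with the group mean and SD in black. The Myc probe, Srm and Mcm6 are highest in tumor, Hp is lowest in tumor, A2m is highest in regression, and Hmgn2 and Dnajb9 move the same way in both pairs of groups.

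Few genes went the same way in both differences. By the test that both differences depart from 0, with the larger of the 2 p-values adjusted over all genes, no gene passed. At an unadjusted p under 0.05 in both, 82 genes were higher in both (0.426% of genes) and 31 lower in both (0.161%). Those that went opposite ways were 50 higher in tumor and lower in liver (0.26%) and 252 lower in tumor and higher in liver (1.31%). By non-overlap of the arrays in both pairs, 70 genes went the same way (0.364%) and 193 opposite ways (1%). These counts moved with single arrays. The same-way set held 190 higher and 44 lower genes without control 1, 155 and 46 without tumor 3, 39 and 36 without control 3, and 35 and 40 without pre-tumor 3, where the larger side turned. The 31 genes lower in both became 51 without control 2 and 20 without tumor 1. The opposite-way 50 became 113 without control 2 and 83 without pre-tumor 3. In the scanner signals 55 were higher and 14 lower.

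Among the genes higher in both, Rfc2, a subunit of the clamp loader of DNA replication, read 7.80, 8.47, 8.20 and 8.54 in pre-tumor, 7.60, 7.55 and 7.10 in control, 9.33, 9.36, 8.78 and 9.22 in tumor and 8.63, 8.14, 8.01 and 8.15 in regression. Neither pair overlapped. The liver difference was 0.84 ± 0.22 and the tumor difference 0.94 ± 0.20, the interaction 0.10 (adjusted p = 0.95). Similar in size in both were Nelfe of the transcription pausing complex NELF (0.67 in liver and 0.69 in tumor), Hpf1, a cofactor of PARP1 (0.59 and 0.61), Cbwd1 (0.44 and 0.46) and Mrpl41 of the mitochondrial ribosome (0.57 and 0.75). Mipep, a mitochondrial peptidase, had 0.79 and 1.26, Acad9, an assembly factor of respiratory complex I, 0.59 and 1.06, Lmo7 0.64 and 1.22, and Fam149a 0.49 and 0.64. Eml2, a microtubule-associated protein, was larger in liver (0.82 against 0.57).

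A subset was higher in both, but more so in tumor. The interaction was called in 13 of the 82. The choice of genes by the same sign in both differences works against such calls, so nothing is read from this count or that of the lower genes. Hmgn2, a nucleosome-binding protein read 6.96, 6.89, 7.03 and 7.19 in pre-tumor, 6.63, 6.53 and 6.08 in control, 9.15, 9.11, 8.78 and 9.31 in tumor and 7.39, 7.35, 6.70 and 7.27 in regression. Neither pair overlapped, and the tumor difference of 1.91 exceeded the liver difference of 0.60 by 1.31 ± 0.27 (adjusted p = 0.0046). Cmss1, a nucleolar protein, had 2.18 and 0.68, a difference of 1.5 ± 0.31 (adjusted p = 0.0043). The median of the 82 was 0.77 in tumor and 0.56 in liver.

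The 31 genes lower in both had medians of -0.78 in tumor and -0.69 in liver, and 1 of them, Serpina3j, named after its values were seen, had a called interaction. Dnajb9, a chaperone of the endoplasmic reticulum, read 7.72, 7.46, 7.90 and 8.06 in pre-tumor, 9.44, 9.73 and 8.52 in control, 6.32, 6.39, 6.55 and 6.77 in tumor and 7.19, 7.30, 7.32 and 7.68 in regression. Neither pair overlapped, and the differences were -1.45 ± 0.25 in liver and -0.86 ± 0.23 in tumor. Lifr, the receptor of LIF, had -0.98 in liver and -1.28 in tumor, and Il6ra, the receptor of interleukin-6, had -1.01 and -1.51. The others of the 12 with the smallest p were Slc29a3, a lysosomal nucleoside carrier (-1.20 and -1.25), Creg1, a secreted glycoprotein (-0.77 and -1.66), Tmem50b (-0.65 and -1.05), Cox17, a copper chaperone of cytochrome oxidase (-0.60 and -0.62), Trim8 (-0.81 and -0.59), Nrg4, a secreted growth factor (-1.23 and -1.62), Plin5, a lipid droplet protein (-1.10 and -1.01), Plcxd1 (-0.40 and -0.42) and Ogfrl1 (-0.40 and -0.37).

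The larger group went opposite ways. Of the 252 genes lower in tumor and higher in liver, 251 had a called interaction, and their medians were -1.06 in tumor and 0.75 in liver. The choice of genes by opposite signs in the same fit itself favours such calls, so nothing is read from their number. Cmbl, a carboxymethylenebutenolidase that activates prodrugs, read 10.78, 10.75, 11.03 and 11.07 in pre-tumor, 10.18, 9.81 and 9.08 in control, 6.48, 6.82, 6.45 and 7.07 in tumor and 8.42, 8.37, 8.43 and 8.13 in regression. Neither pair overlapped, and the interaction was -2.85 ± 0.31 (adjusted p = 5.5e-05), from 1.22 in liver and -1.63 in tumor. Adamts1, a matrix protease, had 1.03 and -1.55, Tgfbi, a matrix protein induced by TGF-beta, 1.02 and -1.89, Akr1c14, a hydroxysteroid dehydrogenase, 1.41 and -1.95, Ces2g, a carboxylesterase, 0.83 and -0.77, and Psd3 0.94 and -1.24. Akr1c14, Ces2g and Psd3 were each well above background on 1 tumor array, so their tumor levels are near the floor of the arrays.

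Of the 50 genes higher in tumor and lower in liver, 48 had a called interaction, with medians of 0.81 in tumor and -0.66 in liver. Here too the choice by opposite signs favours such calls. Cdk2ap2 read 6.45, 7.55, 7.62 and 7.39 in pre-tumor, 8.65, 8.53 and 9.35 in control, 7.76, 8.04, 9.17 and 8.09 in tumor and 7.04, 6.78, 7.20 and 6.85 in regression. Neither pair overlapped, and the interaction was 2.89 ± 0.46 (adjusted p = 0.00076), from -1.59 in liver and 1.30 in tumor. Ung, the uracil glycosylase of DNA repair, had -0.96 and 1.77, Nme6, a nucleoside diphosphate kinase, -0.73 and 0.77, Dpy19l1 -0.68 and 0.65, and Syn1 -0.53 and 0.73. The interaction of Syn1 was 1.26, and 0.62 with the mean of its probes (adjusted p = 0.32). Srm was in this set too, with -0.76 and 3.45.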

How the data were processed

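RNA of 15 liver and tumor samples was hybridised to 1-colour Agilent arrays. The authors deposited a table of log2 normalized values, whose normalization method is not given in the sources used here. Its columns followed the order of each array's own scanner signal, with a Spearman correlation of 0.9903 on control 3 and at least 0.9999 on the others. Scanner spot intensity came from Feature Extraction 10.5.1.1, per the file headers, and was used for detection and for alternatives. No mean spot signal was used, so normexp was run on the median signal with an offset of 50.

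Of 41174 probes, 34908 carried a gene symbol. Of these, the 29924 well above background on at least 3 of 15 arrays were kept. Each gene was read by its probe of highest mean level. One limma 3.58.1 model (R 4.3.3) of the 4 groups gave both differences and the interaction, with Benjamini-Hochberg adjustment over 19232 genes and a threshold of 0.05. Genes going the same way were tested by the larger of the 2 p-values. Named genes were the 12 of largest interaction and of smallest p going the same way, each way, 6 each way going opposite ways, members of each list in order of interaction p, and a fixed set of known MYC and liver genes. The first needed a spot well above background on 2 arrays of the brighter group and a symbol that is no clone name. Members and lists were chosen with earlier results of these data known. Alternatives were scanner signals less each array's 75th percentile, normexp with quantile normalization, slide or replicate number as a block, array weights, a trended robust variance, other probe rules and filters, and leaving out each array. Promoter windows were from RefSeq on GRCm38.p6.

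The replicate numbers were not treated as pairs in the main fit. Deviations of same-numbered samples correlated between -0.488 and 0.570, which does not settle whether the numbers pair the samples.

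Some named genes are not reported here.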

Additional observations from a re-analysis of the deposited data

Results flagged for a closer look

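The tumor difference and the liver difference were unequal, by limma's test of the interaction with Benjamini-Hochberg adjustment, for 1119 genes that were higher in tumor and 1249 that were lower, and for Myc probe A_52_P108346 by 2.52. Among genes of growth, ribosomes and translation, the interaction was 4.21 for Srm, 3.85 for Birc5, 3.58 for Hmga1, 3.35 for Nhp2, 2.44 for Npm1, 2.06 for Ncl and 2.12 for Odc1. It was 1.82 for Cdk4, 1.67 for Fbl, 2.38 for Nolc1, 2.38 for Rplp0, 1.89 for Rps18, 1.82 for Eif3b and 1.93 for Eif5a. It was 1.60 for Amd2 and -2.75 for Mxd1. Among histone, chromatin, replication and cell cycle genes it was 3.75 for H2bc14, 3.69 for H2bc12, 3.67 for H4c4, 3.64 for H4c14, 3.58 for H4c6, 3.33 for H4f16 and 3.29 for Sfmbt2. It was 1.31 for Hmgn2, 1.55 for Mki67, 3.28 for Mcm6, 2.20 for Cdk1, 2.87 for Top2a, 1.91 for Mcm2 and 2.77 for Cdt1. It was -1.06 for Ccnd2, 1.05 for Ccnd3, 2.89 for Cdk2ap2 and 2.73 for Ung. Among metabolic genes it was 3.44 for Eno1, 1.47 for Ldha, 1.59 for Pkm, 2.52 for Slc16a3, 1.69 for Gapdh, 1.98 for Mthfd1l and 2.09 for Adsl. It was -4.26 for Fbp1, -2.59 for Slc2a2, -1.71 for Glud1, 1.76 for Ggt1, -2.75 for Insig2, -2.41 for Sc5d and -2.96 for Bdh1. It was -4.87 for Acsm1, -3.27 for Dpys, -2.39 for Hal, -2.10 for Echdc3 and 1.46 for Etfbkmt. Among products and enzymes of the hepatocyte it was -5.87 for Hp, -5.32 for F11, -4.74 for Serpina3k, -4.63 for Cp, -2.68 for Alb, -2.59 for Trf and -3.54 for F9. It was -2.97 for Cyp4a12a, -2.55 for Cyp2d9, -3.98 for Cyp3a11, -3.07 for Cyp2a12, -4.06 for Slc27a5, -2.46 for Slco1b2 and -3.98 for Serpina3m. It was -3.97 for Hpx. Among genes with their highest mean level in regression it was -4.77 for A2m, -1.96 for Afp, -3.38 for Meg3 and -2.73 for Gpc3. Among stress, death and signalling genes it was -5.31 for Cxcl10, -5.23 for Tnfaip3, -2.59 for Irf1, -3.72 for Cxcl9, -4.29 for Egr1, -3.68 for Zfp36 and -2.75 for Atf3. It was 2.71 for Hyou1, 2.20 for Manf, 1.69 for Asns, -1.92 for Bcl2l11, -3.66 for Bcl2l1, -1.39 for Sesn3 and -1.11 for Gas2. It was -1.82 for Vegfa, -1.56 for Flt1, -3.28 for Rora and 2.36 for Usp2. Among markers of other cell types it was -2.66 for Tyrobp, -2.84 for Cd5l, -1.39 for Cd3g, -1.39 for Nkg7, -2.17 for Stab1, -1.69 for Tek and -2.35 for Pdgfrb. It was -3.62 for Col3a1, -2.91 for Tff3 and -1.54 for Alas2. Among the other genes it was -5.12 for Pla1a, -5.05 for Ccl9, -4.76 for Vnn3, 1.5 for Cmss1, 1.49 for Nme6, 1.32 for Dpy19l1 and 1.26 for Syn1. It was -2.85 for Cmbl, -3.36 for Akr1c14, -2.59 for Adamts1, -2.92 for Tgfbi, -1.60 for Ces2g, -2.17 for Psd3 and 1.96 for Sergef. It was -2.71 for Pygl and 1.05 for Hnf4a. The values of Cdk1 and Cyp2a12 are no measure of size, since Cdk1 was well above background on tumor arrays only and Cyp2a12 on no tumor array. Cdk1 was at least 4.74-fold higher and Cyp2a12 at least 7.24-fold lower in tumor than in regression.

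In 29 of 453 sets of 4 arrays, one set for each named gene and group, 1 array lay far from the others. Chance flags about 1 in 20 groups. Tumor 3, which had the lowest share of spots above background, accounted for 8 of the 29. On regression 3 the level was 8.14 for Tnfaip3, 6.50 for Mki67 and 6.61 for Flt1. On pre-tumor 4 the level was 8.68 for Pla1a, 6.04 for Max and 7.5 for Usp2. On tumor 3 the level was 10.01 for Cp, 7.98 for Cmss1, 7.57 for Hpf1, 8.19 for Creg1, 8.54 for Plin5, 7.79 for Cdk1, 5.96 for Sesn3 and 10.05 for Asns. On pre-tumor 1 the level was 6.95 for Eml2 and 7.25 for Psd3. On regression 4 the level was 6.29 for Nme6, 6.81 for Gpc3 and 7.57 for Sesn3. On tumor 4 the level was 5.41 for Ces2g and 11.52 for Eif5a. On pre-tumor 2 the level was 16.60 for Mup1, 7.58 for Mxd1, 6.23 for Cdt1 and 14.27 for Trf. On pre-tumor 3 the level was 7.22 for Adsl and 6.68 for Gas2. On tumor 2 the level was 8.39 for Cyp4a12a. On regression 2 the level was 9.93 for Dpys.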

How the results depend on the processing

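Of 151 named genes 116 had a called interaction, and 97 of these kept their call and direction under all 28 settings, while none reversed. Scanner signals less the 75th percentile ended 18 calls, among them Ldha, Gapdh, Rps18, Mki67 and Hmgn2, and slide as a block ended 5, namely Hnf4a, Pkm, Ncl, Ccnd3 and Sc5d. With those scanner signals the interaction was called for 1327 genes, the liver difference for 0, the same-way set at unadjusted p under 0.05 held 69 genes and the opposite-way set 171. Array weights gave 5816 calls in tumor, 1 in liver and 201 same-way genes, and a trended robust variance gave 75 same-way genes. The 3 calls in liver became 7 with normexp, 5 where a gene had to be well above background on every array of a group, and 0 with slide as a block or with only the 2 groups compared. With the replicate block, although pairing by these numbers is not established, the interaction had 2610 calls and the liver difference 0. Leaving out 1 array at a time gave 1940 to 2499 calls for the interaction, 3193 to 3996 in tumor, 1 to 29 in liver, 75 to 234 same-way genes and 233 to 417 opposite-way genes, and 0 genes passed the adjusted same-way test each time. Without the arrays of highest and lowest detection together, an alternative chosen after seeing the data, the liver difference had 1 call and the same-way set 173 genes. The causes of these shifts were not tested. Signal over background limits the dim genes, whose differences are compressed.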

Other observations

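Of 4031 probes tested that carry no gene name, 153 had a higher interaction and 53 a lower one by the same limma test with Benjamini-Hochberg adjustment.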
